A study of Mus musculus with 18 samples.

Results

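Crypt organoids of the mouse small intestine grown in collagen type I were compared with and without 5-fluorouracil (5-FU), a fluorinated pyrimidine used in chemotherapy. The comparison holds 6 of the 18 RNA libraries of the series: 3 of 5-FU-treated collagen cultures and 3 of untreated collagen cultures, chosen by their labels alone. All genes of the deposited table were considered, 55414 in all, and 16611 passed a filter on low counts and were tested. The treated cultures received 40 µM 5-FU from day 4, the controls received none, and both were harvested on day 6. Both groups were C57BL/6J wild-type epithelium in ENRW medium, and the series describes the 3 replicates of a group as biological. The same treatment of crypt organoids in Matrigel, which is a gel of basement membrane proteins, in ENR medium (3 treated and 3 untreated libraries) serves below only to show where the response in collagen differed. Collagen and Matrigel cultures differed in matrix and in medium together, so the share of each in a difference cannot be told apart. The labels do not give the sex or age of the mice.

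5-FU is converted in cells to nucleotides that block thymidylate synthase and that are built into RNA and DNA. The resulting strand breaks and ribosome stress stabilise p53, a transcription factor that switches on genes of cell cycle arrest and of apoptosis. In the intestine, crypt stem and progenitor cells divide fast and are the main site of injury by the drug, and surviving epithelium can pass through a state with fetal-like genes, YAP activity and raised adhesion genes.

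The 5-FU libraries held 27.5, 29.3 and 33.4 M estimated counts, and the control libraries 28.8, 26.4 and 25.8 M. Epithelial genes were abundant in both groups: Epcam, an epithelial adhesion molecule, averaged 1640.1 ± 22.1 counts per M (CPM) in 5-FU libraries and 1777 ± 186 CPM in controls (SD, n = 3 each), and Vil1, a microvillus protein, 423 ± 28.7 and 366 ± 10.3 CPM. These 2 belong to 10 epithelial marker genes, of which 4 rose and 3 fell, against 18.6% and 16.7% of all genes tested. Their summed level averaged 22539 ± 2886 CPM with 5-FU and 13198 ± 1088 CPM in controls, while their median log2 fold change was 0.05. The 10 include the keratin genes Krt8, Krt18 and Krt19, which are among the largest gains in level given below, so the sum does not measure epithelial content. Cdx1 and Cdx2, described below, were among the 3 that fell. Of 40 marker genes of immune, mesenchymal, endothelial and glial or neuronal cells, 29 did not pass the filter. The summed level of the 12 immune markers lay between 21.0 and 34.6 CPM in 5-FU libraries and between 11.4 and 18.0 CPM in controls; 1 rose (the lysosomal gene Cd68, 1.30 on the log2 scale) and 2 fell, 5 had no count, and Ptprc and Cd3e did not pass the filter. Cd68 did not pass without 5-FU replicate 2 (adjusted p = 0.0536), nor Lyz2, one of the 2 that fell, without 5-FU replicate 1, 2 or 3 or control replicate 2 (between 0.0577 and 0.166). The 8 endothelial markers summed to between 3.99 and 6.20 CPM with 5-FU and between 0.193 and 0.861 CPM in controls; Tek was the 1 called member (adjusted p = 0.067 without both libraries of replicate 3), 3 had no count, and Cdh5 did not pass the filter. The 12 mesenchymal markers averaged 1.60 and 2.46 CPM in sum, and the 8 glial and neuronal markers 2.49 and 3.77 CPM, with no called member in either list. The part of such cells in the results was not tested. The library of control replicate 3 held both Xist, at 4893 counts, and 738 Y-linked counts, whereas each of the other 5 collagen libraries held only one of these. Its calls are left in, and counts are given without it where they moved.

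With 5-FU, 3094 genes were higher and 2768 were lower, 18.6% and 16.7% of the genes tested, and 35.3% in all (edgeR quasi-likelihood test, Benjamini-Hochberg adjusted p under 0.05). Under library totals without TMM scaling the share of higher genes among those called was 41.7% in place of 52.8%. The median log2 fold change of all genes then moved to -0.13, against -0.03 with TMM scaling. A log2 fold change of 1 or more in size was reached by 1042 genes that rose and 1176 that fell (6.27% and 7.08% of genes tested). A log2 fold change beyond 4 was reached by 131 that rose and 73 that fell. The 3 and 3 values did not overlap for 49.3% of genes tested and for 96.9% of those called. The first principal component, with 73.9% of the variance, separated the 5-FU from the control libraries. Along it, 5-FU replicate 3 and control replicate 1 lay closest to the other group. The median log2(CPM + 0.5) difference from the control mean over those 1042 genes was 1.56, 1.48 and 1.28 in 5-FU replicates 1, 2 and 3. Without control replicate 3, 4817 genes were called, and without 5-FU replicate 3, 5584. Protein-coding genes were called higher in 2996 and lower in 2453 of 13450 cases, while of 1089 processed pseudogenes 12 rose and 80 fell. In bulk RNA, fewer cells of a type and less RNA of a gene per cell cannot be told apart, and this holds for each result below.

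**Figure D1:**
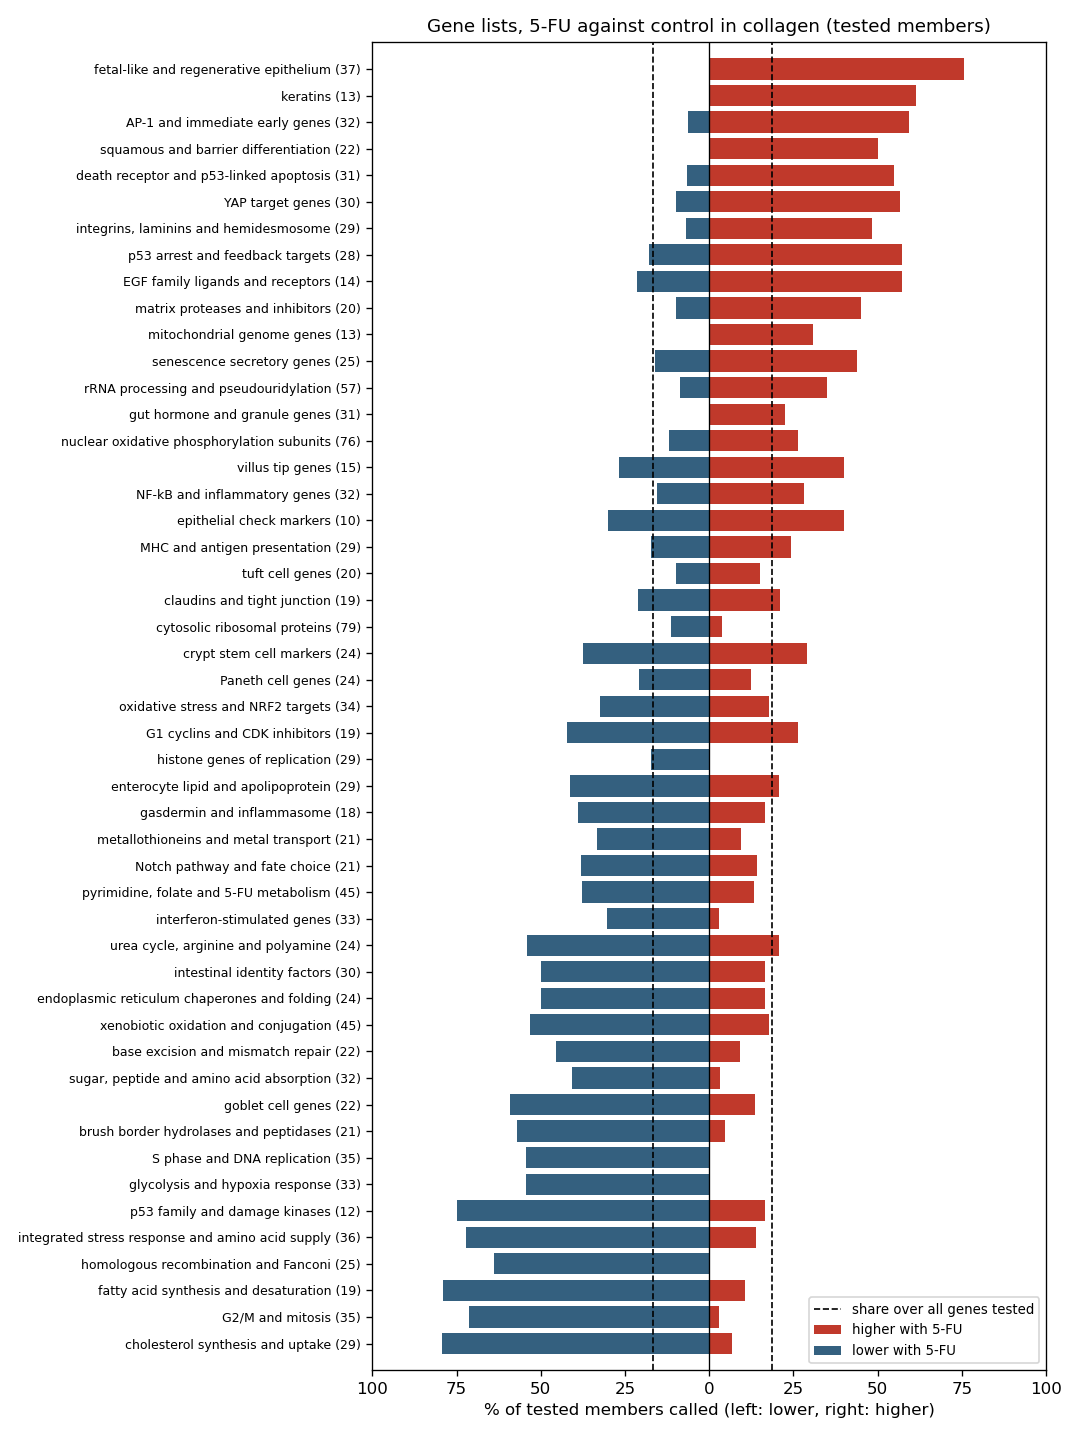
Share of the tested members of each gene list that were called higher (right, red) or lower (left, blue) with 5-FU in collagen; the number of tested members is in brackets and the dashed lines mark the share over all genes tested, 18.6% higher and 16.7% lower. Fetal-like genes, keratins and immediate early genes lie at the top with mostly higher calls, and cholesterol synthesis, G2/M and fatty acid synthesis genes at the bottom with mostly lower calls.

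Among arrest and feedback targets of p53, 23 had an entry in the promoter table, and 8 of these held a p53 consensus pair in the 300 bases that run from 250 before to 50 after a start site. Of these, 5 were among the 14 genes with an entry that rose. The same pair, with at most 2 mismatches and a gap of at most 13 bases, was found on either strand in 8 of the 33 promoters of these genes (24.2%) and in 4.09% of all 32851 promoters. The windows below show the pair of fewest mismatches in capitals with 40 bases on each side, 5′ to 3′ along the gene (RefSeq, GRCm38.p6). Other pairs that meet the rule are not marked. In Cdkn1a the lower-case bases that directly follow the last capital stretch also form such a pair with it. They are given for 4 genes that rose and 2 that fell, because the pair occurs in both kinds. A match describes letters and is not evidence of binding.
Cdkn1a (chr17:29090866-29090977, plus strand): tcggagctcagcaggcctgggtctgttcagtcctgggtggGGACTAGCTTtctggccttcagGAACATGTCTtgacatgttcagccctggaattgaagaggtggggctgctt
Ccng1 (chr11:40755422-40755521, minus strand): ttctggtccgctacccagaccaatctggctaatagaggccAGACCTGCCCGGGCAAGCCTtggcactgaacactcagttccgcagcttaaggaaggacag
Rps27l (chr9:66946256-66946355, plus strand): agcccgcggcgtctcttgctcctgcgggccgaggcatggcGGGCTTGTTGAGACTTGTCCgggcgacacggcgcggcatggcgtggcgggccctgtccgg
Gtse1 (chr15:85859905-85859995, plus strand): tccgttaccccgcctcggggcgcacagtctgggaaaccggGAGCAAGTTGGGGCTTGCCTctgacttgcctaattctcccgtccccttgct
Sesn1 (chr10:41887213-41887315, plus strand): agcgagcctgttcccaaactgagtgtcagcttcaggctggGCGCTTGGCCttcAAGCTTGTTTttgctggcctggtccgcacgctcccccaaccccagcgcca
Gadd45a (chr6:67037398-67037508, minus strand): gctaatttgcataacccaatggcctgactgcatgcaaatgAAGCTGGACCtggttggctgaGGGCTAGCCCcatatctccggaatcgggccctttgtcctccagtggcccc

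Of 28 arrest and feedback targets of p53, 16 rose and 5 fell, with a median log2 fold change of 1.19. Over all genes tested 18.6% rose and 16.7% fell, so the share of these targets that fell was near that background. Mdm2 (ENSMUSG00000020184.16), the ubiquitin ligase that degrades p53, stood at 832, 892 and 863 CPM in 5-FU replicates 1, 2 and 3, against 99.0, 108 and 105 CPM in the controls. Every 5-FU library was far above every control (log2 fold change 3.05, SE 0.13, adjusted p = 1.31e-08, edgeR quasi-likelihood test, as for all adjusted p-values below). Rps27l (ENSMUSG00000036781.14), a ribosomal protein paralogue induced by p53, had 751, 685 and 584 CPM with 5-FU, against 250, 208 and 247 CPM in controls, and again the groups did not overlap (log2 fold change 1.52, SE 0.14, adjusted p = 5.08e-06). Phlda3, an inhibitor of Akt signalling, rose by 2.72 on the log2 scale, Trp53inp1, a stress protein of p53 and autophagy, by 2.75, Sesn2, a sensor that restrains mTORC1, by 2.21, and Gtse1, a microtubule-associated regulator of p53, by 1.60. Gadd45a (ENSMUSG00000036390.9), a classical damage-induced gene, went the other way at 12.2, 10.9 and 10.9 CPM with 5-FU, against 23.2, 20.8 and 24.0 CPM in controls. All 3 treated libraries were below all controls (log2 fold change -1.0, SE 0.16, adjusted p = 0.000307). The other 4 that fell were Sesn1 (-0.57), a paralogue of Sesn2, Ddb2 (-0.74), a sensor of ultraviolet damage, Ddit4 (-0.43), an mTORC1 inhibitor, and Cd82 (-0.43), a tetraspanin. The count of 5 that fell was 3 without 5-FU replicate 1, control replicate 2 or control replicate 3, and 2 without both libraries of replicate 3. Ddit4 did not pass without any of 5 single libraries, all but 5-FU replicate 2 (adjusted p between 0.0516 and 0.175), and Sesn1 not without 5-FU replicate 1 or control replicate 2 or 3 (between 0.054 and 0.0586). Values of 0.39 and 0.32 for the repair genes Rrm2b and Xpc did not pass the test.

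Most kinases and adaptors that signal damage to p53 fell, while the p53 gene rose. Of 12 tested, 2 rose and 9 fell, with a median of -0.66. Trp53 (ENSMUSG00000059552.14) had 249.4, 229 and 228 CPM with 5-FU, against 181, 160.1 and 166 CPM in controls, without overlap (log2 fold change 0.48, SE 0.09, adjusted p = 0.000739). Atm (ENSMUSG00000034218.17), the kinase of double-strand breaks, had 4.62, 6.68 and 7.23 CPM, against 11.7, 21.0 and 11.9 CPM in controls, also without overlap (log2 fold change -1.26, SE 0.31, adjusted p = 0.00571). Atr, the kinase of stalled forks, averaged 14.9 ± 2.36 CPM with 5-FU and 32.6 ± 4.88 CPM in controls (log2 fold change -1.13), Prkdc, the kinase of end joining, 9.53 ± 1.98 and 22.5 ± 2.16 CPM (-1.24), and the checkpoint kinase gene Chek1 fell too (-0.56). The count of 9 that fell was 5 without 5-FU replicate 1.

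Death receptors and p53-linked apoptosis genes were mostly higher, 17 of 31 up and 2 down, with a median of 0.46. Fas (ENSMUSG00000024778.14), the receptor for Fas ligand, had 49.0, 50.7 and 41.2 CPM with 5-FU, against 3.09, 2.83 and 3.62 CPM in controls, so each treated library stood more than 10 times above each control (log2 fold change 3.88, SE 0.19, adjusted p = 4.13e-08). Bax, a pore former of the mitochondrial outer membrane, averaged 648 ± 42.0 CPM with 5-FU and 225 ± 41.5 CPM in controls (1.52). The inhibitor that opposes it rose too: Bcl2l1 (ENSMUSG00000007659.19), which encodes Bcl-xL, had 352, 322 and 257 CPM with 5-FU, against 124, 93.7 and 83.5 CPM in controls (log2 fold change 1.63, SE 0.16, adjusted p = 8.36e-06). Perp, a desmosomal membrane protein, rose by 2.09, Pidd1, an adaptor of caspase-2, by 2.06, and Aen, a nuclease, by 1.65. Casp8 (-0.10), Bcl2 (-0.08) and Bak1 (-0.10) did not pass the test.

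Genes that handle the drug and its folate cofactor were more often lower. Of 45 genes of pyrimidine, folate and 5-FU metabolism, 6 rose and 17 fell, with a median of -0.19. Tyms, which encodes thymidylate synthase, the main target of the drug, had 159, 140.0 and 168 CPM with 5-FU, against 158, 119.8 and 136 CPM in controls, and these overlapped (log2 fold change 0.17, SE 0.11, adjusted p = 0.24). The largest change was that of Aldh1l2 (ENSMUSG00000020256.15), a mitochondrial folate dehydrogenase, at 0.298, 0.843 and 0.4996 CPM with 5-FU, against 8.59, 12.5 and 14.8 CPM in controls (log2 fold change -4.45, SE 0.36, adjusted p = 1.57e-06). Shmt2, the mitochondrial serine hydroxymethyltransferase, had 99.0, 113 and 129 CPM, against 299, 253 and 267 CPM in controls, with no overlap (log2 fold change -1.26, SE 0.12, adjusted p = 4.51e-06). With them fell Mthfd1l (-1.38), the mitochondrial formate-producing enzyme, Aldh1l1 (-1.34), the cytosolic counterpart of Aldh1l2, Slc19a1 (-0.79), the reduced folate carrier, and Tk1 (-1.03), thymidine kinase. Dpyd, whose product breaks down 5-FU, had 3.08, 6.23 and 11.9 CPM, against 11.5, 17.7 and 22.8 CPM in controls (log2 fold change -1.28, SE 0.36, adjusted p = 0.0142). Its highest treated library, replicate 3, lay just above the lowest control. Without 5-FU replicate 2 or control replicate 3 Dpyd did not pass (adjusted p = 0.056 and 0.0658). Umps, Upp1 and Uck1, which act on pyrimidine bases and nucleosides, had values of -0.05, 0.06 and 0.25 and did not pass. The count of 6 that rose was 3 without 5-FU replicate 1, control replicate 2 or control replicate 3.

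Called genes of DNA repair were mostly lower in the treated organoids. In base excision and mismatch repair 2 of 22 rose and 10 fell (median -0.38), and in homologous recombination and the Fanconi pathway none of 25 rose and 16 fell (median -0.60). Ung (ENSMUSG00000029591.15), the glycosylase that removes uracil and fluorouracil from DNA, had 1.87, 2.59 and 3.50 CPM, against 7.73, 6.10 and 7.25 CPM in controls, at low levels but without overlap (log2 fold change -1.40, SE 0.32, adjusted p = 0.00386). Neil3, a glycosylase of dividing cells, had 7.63, 6.68 and 13.6 CPM, against 32.4, 31.3 and 37.3 CPM in controls, again without overlap (log2 fold change -1.85, SE 0.25, adjusted p = 0.000103). Lig1 (-1.52), the DNA ligase of replication, fell as well. Polb, the gap-filling polymerase of base excision repair, and its partner Xrcc1 rose by 0.54 and 0.50. Fanci (-1.11), Fancb (-1.18) and Fancl (-0.90) of the Fanconi pathway fell, and so did Rad50 (-0.77) and Mre11a (-0.67) of the break-sensing complex. Xrcc2 (-0.05) did not pass.

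Most called genes of cell division fell, while cyclins D1 and D2 rose. Of 35 G2/M genes 1 rose and 25 fell (median -0.63), and of 35 S phase genes none rose and 19 fell (median -0.46). Ccnd1 (ENSMUSG00000070348.6), cyclin D1, had 471, 436 and 399 CPM with 5-FU, against 112, 62.6 and 65.1 CPM in controls, with a wide gap between the groups (log2 fold change 2.44, SE 0.19, adjusted p = 1.25e-06). Ccnd2, cyclin D2, had 1541, 1740.0 and 1798 CPM, against 732, 589 and 676 CPM in controls (log2 fold change 1.35, SE 0.10, adjusted p = 7.33e-07). The remaining D-type cyclin gene, Ccnd3, did not pass (0.13). Mki67, the proliferation antigen, had 42.2, 56.9 and 74.6 CPM, against 178, 148 and 152 CPM in controls, and 5-FU replicate 3 lay nearest to the controls (log2 fold change -1.46, SE 0.16, adjusted p = 1.8e-05). Bub1b (-1.50), a spindle checkpoint kinase, Ccnb2 (-1.15), which encodes cyclin B2, and Aurkb (-1.06), a kinase of chromosome segregation, fell. The single member that rose was Ube2c, the ubiquitin-conjugating enzyme of the anaphase-promoting complex, with 309.6, 343 and 398 CPM, against 253, 195 and 240.4 CPM in controls (log2 fold change 0.61, SE 0.13, adjusted p = 0.00205). Among S phase genes E2f2, an activator of replication genes, had 2.16, 2.76 and 3.76 CPM, against 7.63, 14.8 and 14.1 CPM in controls (log2 fold change -2.06, SE 0.29, adjusted p = 0.000121). These did not overlap. The helicase subunit Mcm5, at -0.09, and the loading factor Cdc6, at -0.19, did not pass. In the list of G1 cyclins and inhibitors 5 of 19 rose and 8 fell. The cyclin-dependent kinase inhibitor gene Cdkn1c fell (-1.20). Of 29 replication histones, which are near-identical copies, none rose and 5 fell, a share of lower calls near the 16.7% over all genes tested. Between 1 and 3 fell without 5-FU replicate 1, 2 or 3 or control replicate 1 or 3, and 10 in the limma fit of TPM. The 8 members of the G1 list that fell were 3 without 5-FU replicate 1 or control replicate 3, and 4 without 5-FU replicate 2 or both libraries of replicate 3. The 5 of that list that rose were 3 without 5-FU replicate 1 and 3 in the limma fit of TPM.

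The cell cycle homology region, TTTGAA, a promoter element of mitotic genes, was present on either strand in 22 of the 30 G2/M genes with an entry, and in 15 of the 20 of them that fell. By promoter it was in 23 of their 31 (74.2%), against 17.9% of all promoters. A gene that fell and the gene that rose both hold it, shown in capitals (RefSeq, GRCm38.p6).
Mki67 (chr7:135716432-135716535, minus strand): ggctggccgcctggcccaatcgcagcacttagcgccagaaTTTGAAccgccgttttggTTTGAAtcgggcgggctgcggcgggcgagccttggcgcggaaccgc
Ube2c (chr2:164769860-164769945, plus strand): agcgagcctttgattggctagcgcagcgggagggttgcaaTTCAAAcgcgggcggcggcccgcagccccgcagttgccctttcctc

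Of 57 rRNA processing genes 20 rose and 5 fell with a median of 0.18, and 14 rose and 6 fell under library totals. Exosc6 (ENSMUSG00000109941.2), a subunit of the RNA exosome, the complex that trims rRNA precursors, had 43.9, 44.8 and 48.4 CPM, against 23.6, 7.15 and 12.1 CPM in controls (log2 fold change 1.68, SE 0.31, adjusted p = 0.00105). Exosc1 and Exosc9 of the same complex rose by 0.62 and 0.60, Polr1c, a subunit of RNA polymerases I and III, by 0.83, and Nob1, the endonuclease of the small subunit, by 0.67. The 5 that fell were 1 without 5-FU replicate 1, 5-FU replicate 2 or control replicate 3, and the count of 20 was 13 without both libraries of replicate 3 and 10 in the limma fit of TPM. Among 79 cytosolic ribosomal proteins 3 rose and 9 fell, with a median of -0.03. Both shares were below the 18.6% and 16.7% over all genes tested. Rpl3 had 254, 275 and 259.9 CPM, against 615, 481 and 641 CPM in controls (log2 fold change -1.14, SE 0.12, adjusted p = 1.24e-05), and Rpl22l1, a paralogue of Rpl22, 14.4, 14.3 and 11.7 CPM, against 47.2, 41.0 and 50.6 CPM (log2 fold change -1.78, SE 0.15, adjusted p = 2.72e-06). Neither pair of groups overlapped. The 9 that fell were 14 without control replicate 2 and 21 in the limma fit of TPM. Ribosomal proteins have many pseudogenes, so the authors' assignment of reads among copies may affect single values.

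Of 76 nuclear subunits of oxidative phosphorylation 20 rose and 9 fell (median 0.15), a balance that turned under library totals, with 12 up and 14 down. The 20 were 12, 13 and 10 without 5-FU replicate 1, 5-FU replicate 2 and control replicate 2. The 9 were 4 without control replicate 3 and 15 in the limma fit of TPM. Of 13 genes of the mitochondrial genome 4 rose and none fell, but 1 rose without 5-FU replicate 2 or control replicate 2, and 2 under library totals. Ndufa1, a small accessory subunit of complex I, had 139.7, 127 and 95.1 CPM, against 63.8, 55.3 and 68.1 CPM in controls (log2 fold change 0.95, SE 0.15, adjusted p = 0.000364), whereas Ndufs1, a core subunit of the same complex, had 102, 105 and 130.4 CPM, against 170.4, 203 and 204 CPM (log2 fold change -0.77, SE 0.12, adjusted p = 0.000332). Of 33 genes of glycolysis and of the hypoxia response none rose and 18 fell (median -0.69). Their summed level was 13228, 18118 and 19947 TPM, the authors' length-scaled transcript level, with 5-FU, against 24594, 26540 and 26190 TPM in controls. The treated libraries all lay below the controls, and replicate 1 lay lowest. The same library was the lowest treated one for each of the next 3 genes. Pdk1 (ENSMUSG00000006494.12), the kinase that keeps pyruvate out of mitochondria, had 25.6, 48.1 and 58.7 CPM, against 251, 359.7 and 337 CPM in controls (log2 fold change -2.84, SE 0.27, adjusted p = 5.84e-06). Ndrg1, a hypoxia-induced gene, had 28.8, 49.6 and 53.7 CPM, against 236, 315 and 375 CPM (log2 fold change -2.81, SE 0.24, adjusted p = 2.6e-06), and Vegfa, the vascular growth factor, 19.6, 39.6 and 58.1 CPM, against 120.1, 138 and 140.4 CPM (log2 fold change -1.76, SE 0.27, adjusted p = 0.000217). The glycolytic enzyme gene Pfkp (-1.40) and the oxygen sensor gene Egln1 (-0.80) fell. Ldha, lactate dehydrogenase, had 3456, 4798 and 4912 CPM, against 5639, 5705 and 6055 CPM in controls. These did not overlap, yet did not pass (log2 fold change -0.40, SE 0.19, adjusted p = 0.118). The glucose transporter gene Slc2a1 (-0.05) did not pass either.

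**Figure D2:**
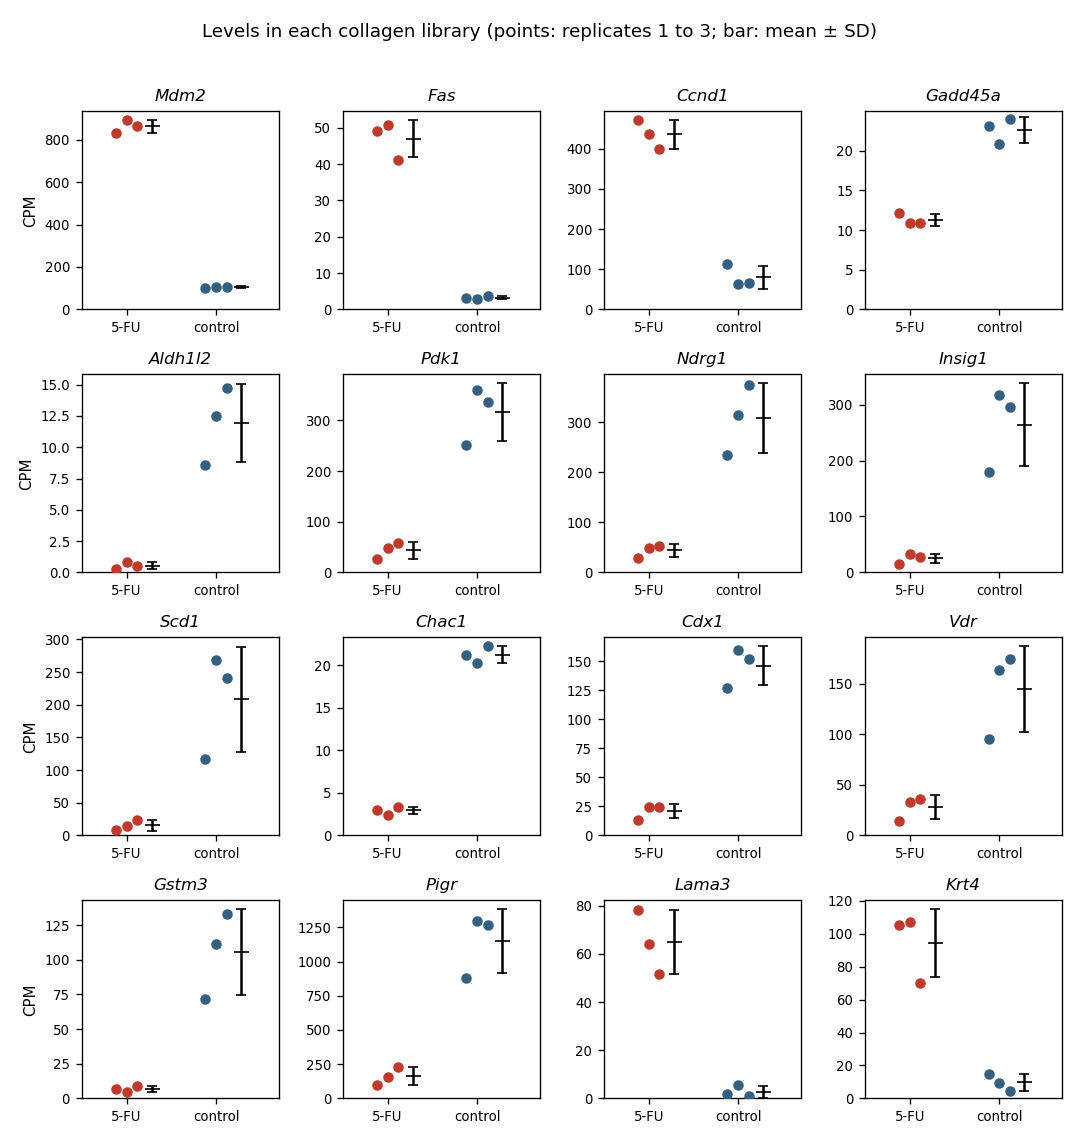
CPM of 16 genes in each collagen library; points are replicates 1 to 3, left 5-FU and right control, and the black mark is the mean with its SD, on a linear axis from 0. No 5-FU point overlaps a control point in any panel; Mdm2, Fas, Ccnd1, Lama3 and Krt4 lie higher with 5-FU and the other 11 lower.

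Most genes of cholesterol and fatty acid synthesis fell. Of 29 cholesterol genes 2 rose and 23 fell (median -1.06), and of 19 fatty acid synthesis genes 2 rose and 15 fell (median -0.95). The summed level of the cholesterol list was 2030, 2674 and 2986 TPM with 5-FU, against 5007, 6483 and 5797 TPM in controls. Insig1 (ENSMUSG00000045294.12), a sterol-responsive brake on its own pathway, had 15.9, 32.2 and 26.8 CPM, against 179, 316 and 296 CPM in controls (log2 fold change -3.40, SE 0.25, adjusted p = 7.55e-07). Scd1 (ENSMUSG00000037071.4), a stearoyl-CoA desaturase, had 7.59, 15.1 and 24.3 CPM, against 117, 268 and 241 CPM (log2 fold change -3.73, SE 0.39, adjusted p = 1.16e-05), and Scd2, its second isoform, 258, 435 and 524 CPM, against 1596, 2665 and 2264 CPM (log2 fold change -2.42, SE 0.23, adjusted p = 5.78e-06). For all 3 genes the lowest control, replicate 1, was still above the highest treated library. Mvd (-1.84), an enzyme of the mevalonate pathway, Tm7sf2 (-2.18), a sterol reductase, Fads1 (-2.29), a fatty acid desaturase, and Acss2 (-2.28), which makes acetyl-CoA from acetate, fell too. Scap (0.55), the escort protein of the sterol-sensing factors, rose. Srebf1, which encodes one of those factors, did not pass (-0.26), though it did with the replicate block (adjusted p = 0.0483). The sterol element TCACNCCA was found in 3 of 29 promoters of 21 cholesterol genes with an entry (10.3%), against 4.36% of all promoters, and CCAAT, the site of a cofactor, in 20 of the 29 (69%), against 37.4%. The sterol element of the gene for HMG-CoA synthase is shown in capitals (RefSeq, GRCm38.p6).
Hmgcs1 (chr13:119690174-119690261, plus strand): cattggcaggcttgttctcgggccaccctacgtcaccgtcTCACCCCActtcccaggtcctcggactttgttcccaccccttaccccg
Hmgcs1 had 156, 210.0 and 236 CPM with 5-FU, against 446, 693 and 612 CPM in controls, without overlap (log2 fold change -1.54, SE 0.17, adjusted p = 1.82e-05).

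Most amino acid supply genes were lower. Of 36 genes of the integrated stress response and amino acid supply, 5 rose and 26 fell (median -0.87), with summed levels of 2237, 2240 and 2215 TPM with 5-FU, against 3186, 3074 and 3087 TPM in controls. Chac1 (ENSMUSG00000027313.4), which degrades glutathione, had 2.97, 2.45 and 3.35 CPM, against 21.2, 20.3 and 22.3 CPM in controls, with a tight spread in both groups (log2 fold change -2.86, SE 0.22, adjusted p = 1.15e-06). Also lower were Trib3 (-2.78), a pseudokinase that feeds back on the factor ATF4, the glutamine carrier gene Slc1a5 (-1.48), the neutral amino acid carrier gene Slc1a4 (-1.91), Pck2 (-2.19), the mitochondrial carboxykinase, and Aldh18a1 (-1.79), an enzyme of proline synthesis. Slc7a11, the cystine carrier, had 3.89, 6.37 and 5.86 CPM, against 24.1, 26.7 and 24.7 CPM in controls (log2 fold change -2.23, SE 0.24, adjusted p = 1.6e-05). The 5 that rose were Gdf15 (1.94), a stress cytokine, Atf3 (1.64), a stress transcription factor, Cbs (1.11), Cebpb (0.84) and Wars1 (0.55). Of these, Gdf15 and Atf3 are also known as p53 targets. Ddit3 (-0.51) and Ppp1r15a (-0.34) did not pass.

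The amino acid response element, TGATGNAA, to which ATF4 with a partner is known to bind, was found on either strand in 13 of 31 genes of this list with an entry and in 11 of the 21 of them that fell. By promoter it was in 13 of their 38 (34.2%), against 3.97% of all promoters. Windows of 4 genes that fell and of Atf3, which rose, are shown with the element or its complement in capitals (RefSeq, GRCm38.p6).
Chac1 (chr2:119351009-119351096, plus strand): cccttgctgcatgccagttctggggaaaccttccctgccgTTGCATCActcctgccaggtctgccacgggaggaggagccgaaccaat
Trib3 (chr2:152344011-152344086, minus strand): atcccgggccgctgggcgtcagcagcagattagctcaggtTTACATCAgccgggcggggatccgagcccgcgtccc
Slc7a11 (chr3:50443613-50443719, minus strand): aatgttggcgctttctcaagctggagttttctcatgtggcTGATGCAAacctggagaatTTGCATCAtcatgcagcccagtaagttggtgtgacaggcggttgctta
Slc1a4 (chr11:20332670-20332757, minus strand): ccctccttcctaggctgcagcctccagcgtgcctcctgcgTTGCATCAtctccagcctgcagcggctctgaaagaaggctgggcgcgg
Atf3 (chr1:191183396-191183483, minus strand): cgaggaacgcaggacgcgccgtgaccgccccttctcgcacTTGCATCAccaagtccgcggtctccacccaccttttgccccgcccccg

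Chaperones of the endoplasmic reticulum showed 4 higher and 12 lower of 24 (median -0.24), with Hyou1 at -1.63, Pdia4 at -1.08, Hspa5 at -0.55 and Xbp1, the transcription factor of the unfolded protein response, at -0.63. Nitrogen disposal changed in both directions, with 5 of 24 genes of the urea cycle, arginine and polyamines higher and 13 lower. Cps1 (ENSMUSG00000025991.9), which makes carbamoyl phosphate in enterocytes, had 19.9, 43.6 and 109 CPM, against 562, 1202 and 1171 CPM in controls (log2 fold change -4.08, SE 0.50, adjusted p = 4.21e-05). Otc, which uses that product, had 0.477, 1.43 and 2.33 CPM, against 20.5, 46.9 and 55.8 CPM (log2 fold change -4.81, SE 0.41, adjusted p = 2.6e-06). Replicate 1 was the lowest treated library for both. Ass1, the next enzyme, which makes argininosuccinate, was higher with 5-FU, at 16.5, 14.1 and 16.3 CPM, against 5.49, 3.04 and 3.23 CPM (log2 fold change 2.00, SE 0.23, adjusted p = 3.07e-05). Smox (1.03), a spermine oxidase, rose, and Paox (-0.90), another polyamine oxidase, fell.

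**Figure D3:**
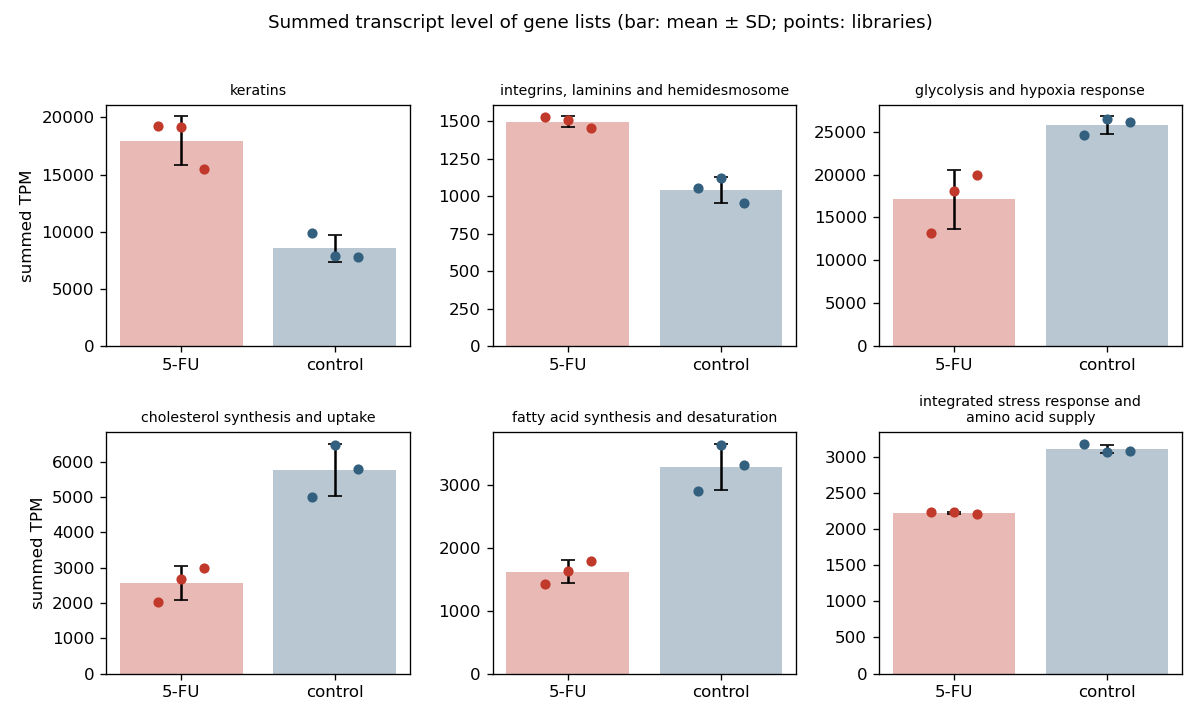
Summed TPM of 6 gene lists in each collagen library; points are libraries, bars the mean of 3 with SD, 5-FU left of control. Keratins and the integrin and laminin list lie higher with 5-FU, and the glycolysis and hypoxia, cholesterol, fatty acid and amino acid lists lower, with no overlap between groups in any panel.

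Of 30 transcription factors that specify the intestine 5 rose and 15 fell, with a median of -0.33. Cdx1 (ENSMUSG00000024619.9), a caudal homeobox factor of the crypt and villus, had 13.7, 24.6 and 24.8 CPM, against 127, 159 and 152 CPM in controls (log2 fold change -2.80, SE 0.19, adjusted p = 3.92e-07). Its paralogue Cdx2, the master regulator of intestinal fate, had 63.9, 74.4 and 78.3 CPM, against 184, 186 and 193 CPM (log2 fold change -1.38, SE 0.10, adjusted p = 5.64e-07), and Isx, a homeobox factor that regulates vitamin A uptake, 26.9, 34.2 and 34.6 CPM, against 105, 100.2 and 90.6 CPM (log2 fold change -1.63, SE 0.11, adjusted p = 3.92e-07). None of these 3 overlapped between groups. Vdr, the vitamin D receptor, had 14.3, 32.5 and 36.4 CPM, against 95.6, 163 and 175 CPM (log2 fold change -2.38, SE 0.29, adjusted p = 4.57e-05). Pparg (-1.05), a lipid-sensing receptor, fell. Gata5, a zinc finger factor, was among the 5 that rose, with 202, 214 and 197 CPM, against 76.4, 68.9 and 67.2 CPM in controls (log2 fold change 1.53, SE 0.12, adjusted p = 9.78e-07). The 5 that rose were 3 without 5-FU replicate 1, 5-FU replicate 2 or control replicate 1, and 3 in the limma fit of TPM. Klf5 (0.16) and Foxa1 (-0.16) did not pass.

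Stem cell and fate genes split. Of 24 stem cell markers 7 rose and 9 fell (median -0.17), and the 7 were 4 in the limma fit of TPM. Smoc2, a marker of crypt base columnar cells, had 273, 255 and 329 CPM, against 755, 735 and 809.7 CPM in controls (log2 fold change -1.42, SE 0.13, adjusted p = 3.18e-06), and Lgr5, their R-spondin receptor, 137, 253 and 318 CPM, against 404, 507 and 479.7 CPM (log2 fold change -0.97, SE 0.25, adjusted p = 0.00728). In the same list Cd44, a hyaluronan receptor, rose by 1.53, Sox9, a progenitor transcription factor, by 1.19, and Tnfrsf19 by 1.37. In the Notch list 3 of 21 rose and 8 fell. The ligand gene Jag2 (1.63) and the target Hes1 (1.08) rose, while the ligand genes Dll4 (-1.15) and Dll1 (-0.83) and the glycosyltransferase gene Lfng (-1.42) fell. The 8 were 5 without 5-FU replicate 2 or control replicate 2.

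Of 31 hormone and granule genes of enteroendocrine cells 7 rose and none fell (median 0.44), a share of higher calls near the 18.6% over all genes tested. Gcg, which encodes proglucagon, had 105, 64.8 and 48.0 CPM, against 26.4, 18.5 and 19.0 CPM in controls (log2 fold change 1.77, SE 0.25, adjusted p = 0.000145), and Cpe, a prohormone processing enzyme, rose by 1.60. The count of 7 was 4 without 5-FU replicate 1 and 3 without control replicate 2. In goblet cell genes 3 of 22 rose and 13 fell. The 3 were 1 without any one 5-FU replicate or control replicate 1, and the 13 were 7 without both libraries of replicate 3. Muc13 had 86.6, 105 and 170.5 CPM, against 330.3, 436 and 468 CPM (log2 fold change -1.77, SE 0.20, adjusted p = 2.7e-05), and Fcgbp, a mucus cross-linking protein, 172, 211 and 267 CPM, against 444, 742 and 665 CPM (log2 fold change -1.51, SE 0.20, adjusted p = 9.44e-05). Neither overlapped between groups. In Paneth cell genes 3 of 24 rose and 5 fell, shares near those over all genes tested, and most alpha-defensins did not pass. The 5 were 8 in the limma fit of TPM and 3 with the 6 collagen libraries alone. Since alpha-defensins are near-identical copies, their single values are uncertain. Reg3b, an antimicrobial lectin, had 51.6, 67.7 and 68.3 CPM, against 10.6, 9.17 and 9.80 CPM, and rose (log2 fold change 2.67, SE 0.24, adjusted p = 3.86e-06). Of 20 tuft cell genes 3 rose and 2 fell, shares below those over all genes tested, but 1 rose without 5-FU replicate 1 and 4 fell without 5-FU replicate 3. The 8 genes of stomach and Brunner glands gave 1 call in each direction, and the one that rose, Aqp5, did not pass without 5-FU replicate 3 or control replicate 2 or 3 (adjusted p between 0.0619 and 0.0998).

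Most called genes of enterocyte function were lower. Brush border hydrolases had 1 of 21 higher and 12 lower (median -1.43), nutrient carriers 1 of 32 and 13 (median -0.75), and lipid handling genes 6 of 29 and 12 (median -0.56). The 6 lipid handling genes that rose were 3 in the limma fit of TPM. Slc5a1, the sodium-glucose carrier, had 34.9, 41.0 and 58.3 CPM, against 103, 156 and 176 CPM in controls (log2 fold change -1.69, SE 0.20, adjusted p = 3.83e-05). Mgam (-2.30), a maltase, Dpp4 (-1.43), a dipeptidyl peptidase, and Slc16a1 (-1.27), a monocarboxylate carrier, fell. Alpi, the intestinal alkaline phosphatase, had 4.22, 16.3 and 23.4 CPM, against 15.0, 111 and 139 CPM. It overlapped because control replicate 1 was low (log2 fold change -2.58, SE 0.64, adjusted p = 0.00672). Fabp1, a fatty acid-binding protein, had 6.38, 20.0 and 35.9 CPM, against 35.6, 235 and 304 CPM, and overlapped through the same control (log2 fold change -3.20, SE 0.69, adjusted p = 0.00276). Plin2, a lipid droplet coat protein, rose by 1.24, and Slc27a4, a fatty acid carrier, by 0.77. In villus tip genes 6 of 15 rose and 4 fell.

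Detoxification genes showed large changes of both signs. Of 45 genes of xenobiotic oxidation and conjugation 8 rose and 24 fell (median -1.41), and of 34 NRF2-linked genes 6 rose and 11 fell. The 6 were 2 in the limma fit of TPM. Gstm3 (ENSMUSG00000004038.10), a glutathione transferase, had 6.82, 4.76 and 8.70 CPM, against 71.7, 112 and 133 CPM in controls (log2 fold change -3.95, SE 0.26, adjusted p = 3.15e-07). Adh1, an alcohol and retinol dehydrogenase, had 17.5, 30.3 and 22.1 CPM, against 96.5, 187 and 235 CPM (log2 fold change -2.89, SE 0.28, adjusted p = 6.09e-06), and Aldh1b1, a mitochondrial aldehyde dehydrogenase, 27.0, 32.0 and 52.3 CPM, against 305, 427 and 474 CPM (log2 fold change -3.44, SE 0.22, adjusted p = 2.96e-07). All 3 genes were lower in every treated library than in any control. Ephx1, the microsomal epoxide hydrolase, was higher, at 727, 818 and 745 CPM, against 184, 129.7 and 182 CPM (log2 fold change 2.21, SE 0.13, adjusted p = 1.24e-07), as was the carboxylesterase gene Ces2e, at 475, 531 and 726 CPM, against 55.9, 128 and 139 CPM (log2 fold change 2.42, SE 0.27, adjusted p = 1.8e-05). Gpx2, the epithelial glutathione peroxidase, rose by 0.93 and Nfe2l2, which encodes NRF2, by 0.60. Hmox1 (-0.05) and Gclm (-0.18) did not pass. Metal transport had 2 of 21 higher and 7 lower. The genes of the zinc carrier Slc39a5 (-3.79), the copper ATPase Atp7b (-1.57) and the transferrin receptor Tfrc (-1.51) fell. Glutathione transferases and carboxylesterases are gene families of similar copies, and reads may have been divided among them.

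Fetal-like, keratin and adhesion genes that passed the test were mostly higher. Of 37 fetal-like and regenerative genes 28 rose and none fell (median 1.36), of 13 keratins 8 rose and none fell (median 1.25), and of 29 integrins, laminins and hemidesmosome genes 14 rose and 2 fell (median 0.50). Summed keratin level was 19275, 19130 and 15524 TPM with 5-FU, against 9912, 7875 and 7816 TPM in controls. Krt19, a simple-epithelium keratin, had 6178, 6244 and 4472 CPM, against 3004, 2212 and 2321 CPM (log2 fold change 1.16, SE 0.14, adjusted p = 3.38e-05). Krt4, a keratin of the oesophagus, had 105, 107 and 70.3 CPM, against 15.0, 9.51 and 4.44 CPM, from a low base (log2 fold change 3.28, SE 0.36, adjusted p = 1.79e-05). Lama3 (ENSMUSG00000024421.17), a laminin chain of epithelial basement membrane, had 78.4, 64.2 and 51.9 CPM, against 1.71, 5.48 and 0.814 CPM in controls (log2 fold change 4.60, SE 0.54, adjusted p = 3.16e-05). With it rose Itgb4 (1.75), the integrin of hemidesmosomes, while Itga6 (0.35), the alpha chain of the same receptor, did not pass, though it did with the replicate block (adjusted p = 0.0172). Cd55, a complement regulator, had 296, 232 and 210.3 CPM, against 42.3, 35.2 and 35.01 CPM (log2 fold change 2.71, SE 0.16, adjusted p = 1.21e-07), and Il33, an alarmin cytokine, 355, 277 and 230.1 CPM, against 58.2, 36.9 and 26.3 CPM (log2 fold change 2.83, SE 0.32, adjusted p = 2.53e-05). The treated libraries lay above the controls for each of these genes.

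Of 14 EGF family ligands, receptors and regulators 8 rose and 3 fell. Ereg, the ligand epiregulin, rose by 3.09, and Egfr, its receptor, had 212, 208 and 169.9 CPM, against 67.8, 59.0 and 49.7 CPM in controls (log2 fold change 1.74, SE 0.16, adjusted p = 5.37e-06). Lrig1 (-0.95), which restrains the receptor, fell. Of 30 YAP target genes 17 rose and 3 fell (median 1.05), with the matricellular genes Ccn2 and Ccn1 at 2.76 and 2.06, whereas Yap1 itself, at -0.07, did not pass. Their TEAD element GGAATG occurred in 12 of the 26 promoters of 23 genes with an entry (46.2%), against 14.7% of all promoters. Of 32 immediate early genes 19 rose and 2 fell (median 0.71), among them Nr4a1, an orphan nuclear receptor, at 2.48 and Fosl1, a subunit of AP-1, at 2.82. Jun did not pass (-0.24). Of 20 matrix proteases and inhibitors 9 rose and 2 fell. Serpine2, a protease inhibitor, had 27.9, 21.1 and 22.2 CPM, against 1.93, 0.482 and 1.85 CPM (log2 fold change 4.06, SE 0.53, adjusted p = 7.51e-05), Timp3, a metalloprotease inhibitor, rose by 2.45, and Mmp14, a membrane-bound collagenase, by 1.26.

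Of 22 tested squamous and barrier genes 11 rose and none fell (median 0.87). Their summed level was 19072, 19121 and 18001 TPM with 5-FU, against 17632, 12758 and 14120 TPM in controls, so the list was abundant in both groups, and the next 2 members were low. Ivl, a precursor of the cornified envelope, had 9.31, 9.97 and 5.33 CPM, against 0.709, 0.379 and 0 CPM in controls (log2 fold change 4.46, SE 0.71, adjusted p = 0.000342), and Casp14, a caspase of cornification, 7.74, 7.00 and 7.14 CPM, against 0, 0 and 0.703 CPM (log2 fold change 5.00, SE 0.90, adjusted p = 0.000765). Among treated libraries they lay between 5.33 and 9.97 CPM, and each control was under 1 CPM, so the fitted fold of Casp14, at 0 in 2 controls, depends on the prior count. Dsp, a desmosomal linker, and Evpl, an envelope protein, rose by 0.92 and 1.20. Flg, Sprr3 and Trp63 did not pass the filter. In the claudin and tight junction list 4 of 19 rose and 4 fell, shares near those over all genes tested. Cldn2, a pore-forming claudin, was at 1.09 and Cldn15, a sodium-selective one, at -1.06.

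**Figure D4:**
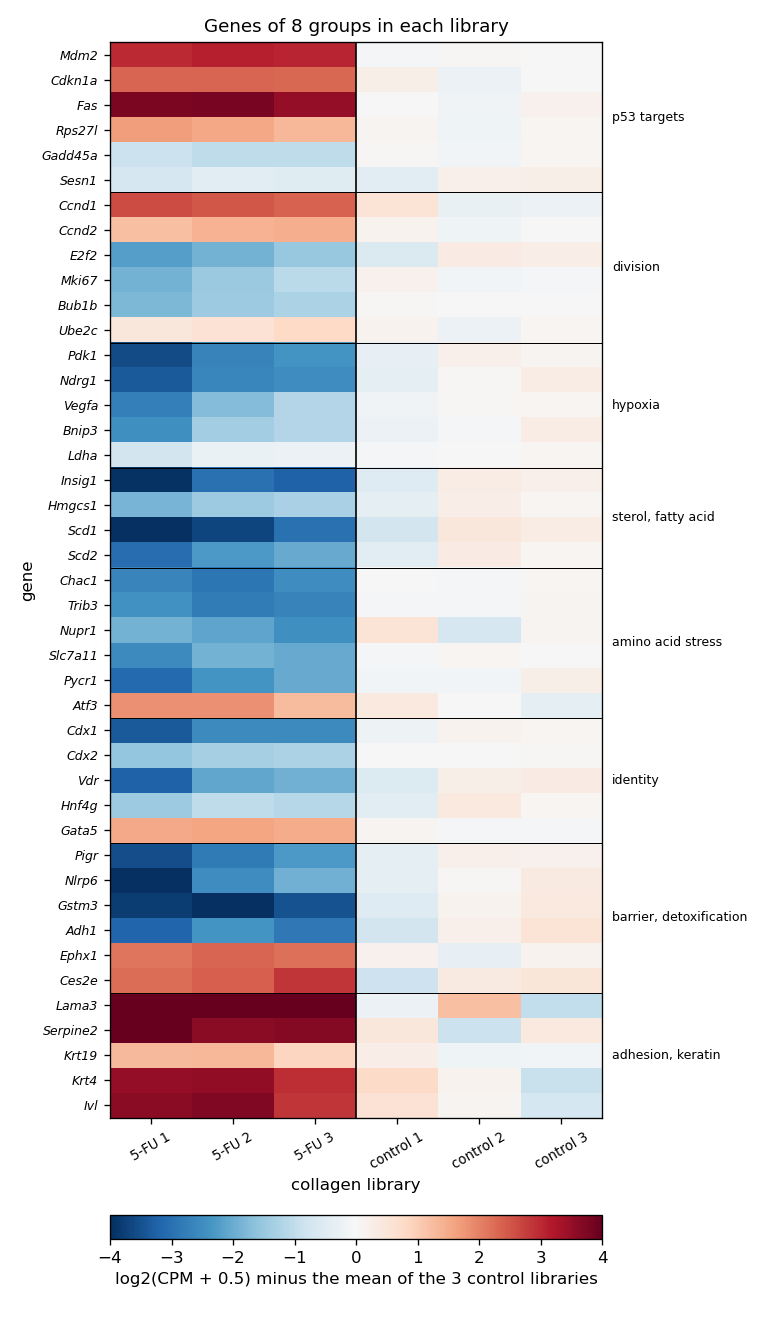
Log2(CPM + 0.5) of genes from 8 groups in each collagen library minus the mean of the 3 controls (red higher, blue lower; colours stop at 4 on either side), 5-FU libraries left of controls. The direction is the same in the 3 treated libraries for each gene, and 5-FU replicate 1 is mostly the darkest in the hypoxia, lipid and identity groups.

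Among 32 genes of NF-kB signalling and inflammation 9 rose while 5 fell (median 0.28). Ptgs2 (ENSMUSG00000032487.9), cyclooxygenase-2, had 118, 71.6 and 39.5 CPM, against 6.35, 4.93 and 1.37 CPM in controls (log2 fold change 4.17, SE 0.69, adjusted p = 0.000428). Icam1, a leukocyte adhesion molecule, had 93.3, 80.6 and 72.5 CPM, against 12.8, 8.21 and 5.93 CPM (log2 fold change 3.19, SE 0.26, adjusted p = 1.41e-06), and Csf2, the cytokine GM-CSF, 36.8, 15.0 and 9.53 CPM, against 1.55, 0.586 and 0.296 CPM (log2 fold change 4.63, SE 0.78, adjusted p = 0.000491). For Ptgs2 and Csf2 replicate 1 was highest and replicate 3 lowest in both groups. Of 25 senescence secretory genes 11 rose and 4 fell; Il6 and Il1b did not pass the filter, and Cxcl1 (0.69) and Ccl20 (0.08) did not pass the test. Pigr (ENSMUSG00000026417.14), which carries IgA across the epithelium, had 96.9, 158 and 228 CPM with 5-FU, against 877, 1299 and 1268 CPM in controls (log2 fold change -2.83, SE 0.25, adjusted p = 3.58e-06). Nos2 (-2.74), an inducible nitric oxide synthase, fell.

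Inflammasome components were lower in 7 of 18 tested and higher in 3. Nlrp6, a sensor of goblet cells and enterocytes, had 13.7, 50.1 and 74.1 CPM, against 214, 294 and 361 CPM (log2 fold change -2.65, SE 0.41, adjusted p = 0.000268), while Il18, a cytokine that inflammasomes process, had 12.0, 9.86 and 4.78 CPM, against 1.13, 0.551 and 0.444 CPM (log2 fold change 3.62, SE 0.36, adjusted p = 7.92e-06). The adaptor gene Pycard (-1.18) and the caspase gene Casp1 (-0.64) fell. Antigen presentation genes included 7 higher and 5 lower of 29 (median -0.12), shares near the 18.6% and 16.7% over all genes tested. Tap1, the peptide transporter, had 107, 112 and 121 CPM, against 21.0, 17.7 and 26.5 CPM (log2 fold change 2.38, SE 0.17, adjusted p = 5.92e-07), and the class II chain H2-Eb1 9.64, 12.9 and 22.4 CPM, against 0.644, 0.413 and 0.740 CPM (log2 fold change 4.64, SE 0.41, adjusted p = 3.4e-06). H2-Q10, a class Ib chain, had 5.07, 9.40 and 20.2 CPM, against 151, 175 and 235 CPM (log2 fold change -4.01, SE 0.38, adjusted p = 5.6e-06). Class I genes share much of their sequence, so reads may have been divided among them. Interferon-stimulated genes were lower in 10 of 33 and higher in 1 (median -0.51). The 10 were 6 without control replicate 3 and 4 without both libraries of replicate 3. Ifit1, an RNA-binding effector, had 0.110, 0.210 and 0.245 CPM, against 0.451, 1.16 and 6.23 CPM, the highest value being that of control replicate 3 (log2 fold change -3.77, SE 0.87, adjusted p = 0.00417). Without that library its log2 fold change was -2.09 (adjusted p = 0.0318).

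Among the 15 genes that rose most by log2 fold change, several stood outside the lists. Tnfrsf18, a receptor also known as GITR, had 66.2, 77.8 and 89.5 CPM with 5-FU, against 3.33, 2.61 and 3.14 CPM in controls (log2 fold change 4.68, SE 0.26, adjusted p = 1.14e-07), and Ddit4l, a paralogue of the mTORC1 inhibitor Ddit4, 166, 152 and 137 CPM, against 7.76, 6.41 and 6.51 CPM (log2 fold change 4.46, SE 0.34, adjusted p = 1.06e-06). Each treated library of both genes was above each control. Ltf, which encodes the iron-binding lactoferrin, and Eva1c rose by 4.59 and 4.60. Ppp2r2c, a regulatory subunit of a phosphatase, held no count in the 3 controls and 409 counts in the 5-FU libraries. It was at least 133-fold higher when 3 counts over the control group are taken as the floor, which covers counting error only. Scn4b and the Wnt receptor Fzd10, also at 0 in controls, were at least 57.9-fold and 55.9-fold higher. These 3 genes are examples of 12 at 0 in the controls and at 1 CPM or more with 5-FU. Among the 15 that fell most, Vash2, a tubulin carboxypeptidase, had 1.06, 0.805 and 0.787 CPM, against 10.4, 12.2 and 9.10 CPM (log2 fold change -3.57, SE 0.31, adjusted p = 2.8e-06), and Muc3, a membrane mucin, 1.21, 5.98 and 3.82 CPM, against 24.8, 45.4 and 51.2 CPM (log2 fold change -3.46, SE 0.50, adjusted p = 0.000158).

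By transcript level rather than ratio, the genes that gained most TPM were S100a11, Krt19, Krt8, Rps27l, S100a6, Krt18, Gpx2, Clu, Anxa2, Ly6a, Ctsd, Cd81, Cdkn1a, Bax and Crip2. Clu, a chaperone that marks revival stem cells, had 4718, 3589 and 2473 CPM, against 1557, 971 and 733 CPM (log2 fold change 1.73, SE 0.25, adjusted p = 0.000153), Ctsd, a lysosomal protease, 3232, 2999 and 2523 CPM, against 941, 797 and 859.7 CPM (log2 fold change 1.75, SE 0.10, adjusted p = 1.14e-07), and Cd81, a tetraspanin, 1935, 1939 and 1794 CPM, against 769.7, 691 and 714 CPM (log2 fold change 1.38, SE 0.09, adjusted p = 2.96e-07). Each was higher in all treated libraries than in any control. Among the 15 genes that lost most were Lgals2, Eef1a1, Dbi, Tff3, Tpi1, Tuba1b, Hist1h2ap, Gpi1, H2afz, Anxa4, Fdps, Ero1l, Rps9 and Hspa8. Among them are 2 glycolytic enzymes, Tpi1 (-0.59) and Gpi1 (-1.06), the oxidoreductase Ero1l (-1.95) and the replication histone Hist1h2ap (-1.22). Tff3, a goblet cell trefoil factor, did not pass without 5-FU replicate 2 or 3 or control replicate 1 or 3 (adjusted p between 0.0635 and 0.122). Tpi1 did not pass without 5-FU replicate 1 or control replicate 3 (0.101 and 0.0642), and Anxa4 without the same libraries (0.057 and 0.0559).

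In Matrigel, 5128 genes were called (30.9% of those tested), and 3277 genes were called in both matrices, 55.9% of the collagen calls and 63.9% of the Matrigel calls. Of the shared calls 1834 rose in both, 1244 fell in both, 21 rose in collagen and fell in Matrigel, and 178 fell in collagen and rose in Matrigel. The difference of the responses was tested itself, and 1360 genes passed (8.19%): 313 had a higher log2 fold change in collagen (1.88%) and 1047 a lower one (6.3%). Of 2585 genes called in collagen and not in Matrigel, 488 passed the test of the difference.

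The p53 list had 10 of 28 members with a lower response in collagen and none with a higher one, against 6.3% and 1.88% of all genes tested. Such a difference compares ratios to the untreated level and not treated levels. Cdkn1a, a member of the 10, averaged 913 CPM in treated and 184 CPM in untreated collagen cultures, and 1049 and 103 CPM in Matrigel. Mdm2 had log2 fold changes of 3.05 in collagen and 2.96 in Matrigel (adjusted p of the difference 0.831), and Phlda3 2.72 and 4.55 (0.000493). In the S phase list the responses differed the other way, with 13 of 35 members less lowered in collagen. Mcm5 had -0.09 in collagen and -1.08 in Matrigel (difference 0.99, SE 0.15, adjusted p = 0.00119). Of 35 G2/M genes 2 passed the test of the difference, a share near the 8.19% over all genes tested.

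Several lists of differentiated functions held many differences. In xenobiotic metabolism 24 of 45 fell in collagen, while in Matrigel 2 fell and 29 rose, and 27 had a lower response in collagen. In the brush border list 12 of 21 fell in collagen and 13 rose in Matrigel, and 17 had a lower response in collagen. In nutrient carriers 22 of 32, in Paneth cell genes 18 of 24 and in lipid handling 16 of 29 had a lower response in collagen. In goblet cell genes 10 of 22 and in gut hormone genes 10 of 31 had one too, against 6.3% of all genes tested. The fetal-like list is of another kind and rose in both matrices. Of its 37 genes 28 rose in collagen and 33 in Matrigel, none fell in either, and 10 had a lower response in collagen. Its median was 1.36 in collagen and 2.37 in Matrigel. No member of these 8 lists had a higher one. Gstm3 averaged 6.76 CPM in treated and 105 CPM in untreated collagen cultures, and 1485 and 1322 CPM in Matrigel cultures, and the untreated collagen level was thus the lower of the untreated ones (difference -4.12, SE 0.33, adjusted p = 3.49e-05). Adh1 had log2 fold changes of -2.89 in collagen and 1.20 in Matrigel (adjusted p = 4.89e-05). Slc5a1 had -1.69 and 0.89 (adjusted p = 0.000145). Among identity factors Cdx1 had -2.80 in collagen and -1.34 in Matrigel (adjusted p = 0.00287), Cdx2 -1.38 and -0.49 (0.00125), and Isx -1.63 and -0.32 (0.0002). Ndrg1 fell in collagen (-2.81) and had -0.01 in Matrigel (adjusted p = 0.000203), whereas the difference for Pdk1, with -2.84 and -2.09, did not pass (0.245).

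Of the genes with a higher response in collagen, Pm20d1, a peptidase that makes N-acyl amino acids, averaged 45.1 CPM in treated and 2.95 CPM in untreated collagen cultures, and 61.6 and 18.7 CPM in Matrigel (difference 2.21, SE 0.37, adjusted p = 0.00234). Clic4, an intracellular chloride channel protein, had 0.72 in collagen and -0.88 in Matrigel (adjusted p = 0.000145), and Dusp7, a phosphatase of the kinase ERK, 1.14 and -0.62 (0.000222). Mmp14, which cleaves collagen, had 1.26 in collagen and -0.13 in Matrigel (adjusted p = 0.000735).

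**Figure D5:**
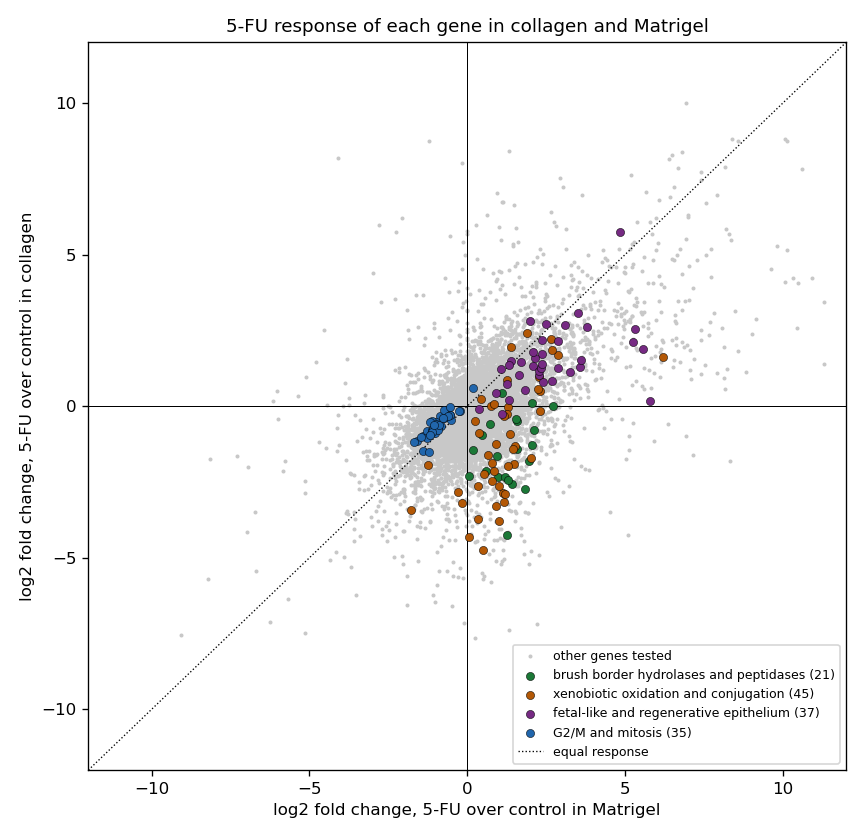
Log2 fold change (5-FU over control) of each tested gene in collagen (y axis) and Matrigel (x axis), with members of 4 lists coloured; the dotted line marks equal responses. Brush border and xenobiotic genes lie mainly below 0 in collagen and above 0 in Matrigel, G2/M genes below 0 in both, and fetal-like genes above 0 in both.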

How the data were processed

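RNA of crypt organoids and villus cultures was sequenced in 18 libraries, and the deposited table gives for each gene estimated counts and TPM (transcript levels scaled for length and depth), made by the authors. The submitters' processing notes name bcl2fastq 2.20, DRAGEN and the builds GRCm39 and mm39, with no further settings. The library kits named in the labels' protocols (SMART-Seq mRNA and Nextera XT) do not mark strand, so reads of a gene and of an antisense partner cannot be told apart. Of the nonzero deposited counts 67.8% are whole within 1e-9. Counts were rounded and fitted with edgeR 4.0.16 (R 4.3.3) over 12 libraries, the 4 groups with and without 5-FU, using TMM scaling, filterByExpr (minimum count 10, minimum total 15) and the quasi-likelihood test with Benjamini-Hochberg adjustment at 0.05. SE is the log2 fold change divided by the root of F. CPM uses TMM-scaled totals, and its precision is limited by depth and 3 replicates. Deposited TPM served for summed levels, for level shifts and in limma 3.58.1. DESeq2 1.42.0, other scalings and filters and left-out libraries were alternatives. The steps were tested on simulated data.

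Symbols were matched to the file's gene IDs from a reference table of gene names (52081 of 55414 IDs), and 1468 of 1474 listed genes matched, 59 by a synonym. Gene members and lists were chosen with earlier results of these data known. The genes named by rule are, each way, the 15 called genes of largest fold change (groups not overlapping and a group mean of 10 CPM or more), the 15 of largest TPM shift, the 10 of largest difference between matrices, and in each list the 6 called members of smallest adjusted p, with members that did not pass as examples. A few of these genes are not reported here. Called genes outside that rule were chosen after their values were seen: Sesn1, Gadd45a, Ccng1, Ddb2, Ddit4, Cd82, Dpyd, Ung, Polb, Ube2c, Hmgcs1, Scap, Cbs, Cebpb, Wars1, Lgr5, Alpi, Fabp1, Ppp2r2c, Scn4b and Fzd10, and in a figure Nupr1, Pycr1 and Bnip3.

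Same-numbered libraries deviated together, with correlations of 0.434, 0.148 and 0.22 between the treated and control libraries of replicates 1, 2 and 3 over 9771 genes. Each was over 0.1, so the numbers were taken to pair samples. Between unlike numbers the highest was 0.175, of treated replicate 3 with control replicate 2, above that of pair 2. The main fit holds the group only, so its fold changes, SE values and calls are unpaired. A fit with a replicate block was run as an alternative. Promoters are RefSeq windows of GRCm38.p6, another build than the deposited table, and were used for their letters only.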

Additional observations from a re-analysis of the deposited data

Results flagged for a closer look

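The 5-FU response differed between collagen and Matrigel by the test of the difference for 1360 genes (edgeR quasi-likelihood test, adjusted p under 0.05). Differences below are log2 fold changes in collagen minus those in Matrigel. Of 80 genes named for their large changes, level shifts or differences, 41 passed, against 8.19% of all genes tested. The genes named for their differences were selected by that difference, and all of them are among the 41. The count therefore does not show how often genes of large changes or level shifts differed between matrices.

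Higher responses in collagen were those of Arhgef4 (2.80), Ntn4 (2.60), Prss12 (2.56), Pm20d1 (2.21), Nr4a2 (1.85), Dusp7 (1.76), Clic4 (1.60), Btbd19 (1.57), Fgfbp1 (1.55) and Pkp1 (1.47). Of these, Fgfbp1 fell in collagen too, at -0.59, and is listed because it had -2.14 in Matrigel. Ntn4, a basement membrane netrin, averaged 11.3 CPM in treated and 2.21 CPM in untreated collagen cultures, and 11.9 and 14.2 CPM in Matrigel.

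Lower responses in collagen among genes that fell there most by ratio or by level were those of Otc (-3.86), Aoc1 (-4.38), Hkdc1 (-4.75), Muc3 (-4.97), Gstm3 (-4.12), Ces1d (-4.09), Slc39a5 (-3.44), Vash2 (-3.18), Scd1 (-3.05), H2-Q10 (-2.67), Aldh1l2 (-1.89), Tff3 (-1.90), Olfm4 (-1.55) and Anxa4 (-0.52). Genes that rose in collagen, with a lower response there than in Matrigel, were Ano3 (-4.96), Zfp365 (-4.53), Crip2 (-3.24), Mcam (-2.45), Ly6a (-2.28), Cdkn1a (-1.03) and Bax (-0.74). For each, the mean untreated level was higher in collagen than in Matrigel, and so was the mean treated level, except for Cdkn1a. Ly6a averaged 1367 CPM in treated and 552 CPM in untreated collagen cultures, and 207 and 17.3 CPM in Matrigel. Crip2 averaged 758 and 50.5 CPM in collagen, and 427 and 3.04 CPM in Matrigel. Aoc1, a diamine oxidase, averaged 0.604 CPM in treated and 12.9 CPM in untreated collagen cultures, and 202 and 188 CPM in Matrigel.

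The lowest differences were those of Pakap (-9.91), Clec2h (-8.70), Ggta1 (-7.85), Dscaml1 (-6.68), Mslnl (-6.63), Axl (-6.42), Slc5a4b (-6.30), Hmgcll1 (-5.97), Mfsd4b2 (-5.56) and Enpep (-5.53). Pakap, Ggta1, Dscaml1, Mslnl, Axl and Hmgcll1 had no count in untreated Matrigel cultures, and Slc5a4b and Mfsd4b2 none in treated collagen cultures, so these fitted values depend on the prior count and are no bound. The same holds for Clec2h, at 0.0122 CPM in treated collagen cultures, and for Ano3 and Zfp365, at 0.0242 and 0.0530 CPM in untreated Matrigel cultures. Slc5a4b and Mfsd4b2 averaged only 0.162 and 0.122 CPM in untreated collagen cultures. The collagen call of Slc5a4b was lost without 5-FU replicate 1, 2 or 3 or control replicate 1 or 3 (adjusted p between 0.0629 and 0.08). It was also lost without both libraries of replicate 3 (0.1425), and neither gene passed in the limma fit of TPM. Enpep, a brush border aminopeptidase, averaged 0.295 CPM in treated and 5.64 CPM in untreated collagen cultures, and 278 and 115 CPM in Matrigel.

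Control replicate 3 in collagen held 738 Y-linked counts beside Xist, outside the measurement compared here, while control replicate 1 held none.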

How the results depend on the processing

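Against 5862 called genes (3094 higher, 2768 lower), leaving out 1 collagen library at a time gave 4565 to 5584, with 2435 to 2941 higher and 2023 to 2643 lower, and 4640 without both libraries of replicate 3. The count was 5961 with DESeq2's size factors in edgeR, 5939 with library totals (2478 higher, 3461 lower), 6506 with DESeq2, 5141 with limma on log2(TPM + 1), 5802 with the 6 collagen libraries alone, and 2218 with a log2 fold change of at least 1 (1042 higher, 1176 lower). Of 1360 genes with a difference between matrices, 313 had a higher response in collagen; this was 486 with DESeq2's size factors, 486 with library totals, 844 with DESeq2 (2219 in all), 681 with no filter, and 78 with a log2 difference of at least 1 (802 in all). Leaving out 1 of the 12 libraries gave 931 to 1297 differences, 168 to 322 higher and 742 to 997 lower; the higher count was 168, 189, 191 and 194 without treated collagen replicate 2, treated Matrigel replicate 3, untreated collagen replicate 3 and untreated Matrigel replicate 2. With the replicate block, 6189 genes were called (3274 higher, 2915 lower) and 1596 differences, and among 386 genes that the rule selects or the text names the paired fit ended the call of 1, H2bc14, and added Itga6 and Srebf1; it changed no other. None of the called ones among these genes reversed under any alternative run. Without both libraries of replicate 3, 22 of them lost the call, and with limma 9. Of 885 comparisons of list counts of 5 or more with an alternative, 61 moved by over 1.5 times, and of 35 list counts of 1 to 4, 17 did so without at least 1 single collagen library. The causes were not tested. Depth limits genes near 1 CPM, and 3 replicates limit the precision of each SE.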
